A study of Mus musculus with 9 samples.

Results

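Csf1r, Tagln, Cd3e, Egfl7, Calcrl and Nkain4 are genes known as markers of lung cell types other than fibroblasts, and their reads were followed here in sorted lung fibroblasts. They are 6 of the 55302 gene symbols in the tables, of which 17428 were above 0 in any library. They were chosen by their levels in these same libraries, as the leading genes of macrophage, smooth muscle, T cell, endothelial and mesothelial marker sets of which the other markers are low. Their levels are therefore given as a description with no test. The comparison of doxorubicin with control, which played no part in that choice, was tested.

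The libraries came from fibroblasts of lungs at an early metastatic stage, 5 from mice given the DNA-damaging drug doxorubicin (DOX) and 4 from mice given the vehicle, which the labels call both PBS and saline. All mice of both groups had carried an orthotopic breast tumour that was resected, and DOX was given afterwards in 2 doses of 5 mg/kg. Lungs were collected 24 h after the final dose. The mice were females injected at the age of 8 weeks, of the strain BALB/c for 4T1 tumour cells and C57BL/6 for EO771 tumour cells, and the methods do not say which of these models the RNA-seq libraries came from. No genetic change to the mice is named. In the methods the gate took PDGFRα+ cells that were negative for CD45, EpCAM and CD31, while CD31 is not in the labels. No immune or endothelial cell carrying the surface protein should pass such a gate.

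Each library was made by MARS-seq, a method that reads a tag next to the 3′ end of polyadenylated RNA and keeps its strand. A value is a normalized count, the number of reads of a gene divided by 1 size factor of its library. The 9 libraries held 432322 to 1285816 reads, and 1 read was worth 0.512 to 1.94 normalized counts. The strand setting of the counting step is not given in the sources used here. Where 2 genes lie over each other on opposite strands, the value of one may therefore hold reads of the other, and this applies to every value below. The tables hold 1 value per gene and no read positions.

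CSF1R is the receptor for the growth factors CSF1 and IL-34 and keeps macrophages alive. TAGLN, or transgelin, binds actin in smooth muscle cells and in activated fibroblasts. CD3E is a signalling chain of the T cell receptor complex, EGFL7 is a secreted protein of endothelial cells, and CALCRL is a receptor for adrenomedullin and calcitonin gene-related peptide, which it binds together with a RAMP protein. NKAIN4 is a membrane protein named for its interaction with the sodium pump.

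The label of an unexpectedly high marker held for some of these genes only. Csf1r and Tagln stood far above all other genes of their lists in all 9 libraries, and Egfl7 led the endothelial list by its mean. Calcrl came second to Egfl7 in that list by the mean over all 9 libraries. In the PBS libraries alone its mean of 11.8 was below those of Plvap (14.8) and Ramp2 (12.8). Cd3e was at 2.11 to 16.3 normalized counts and was the highest T cell marker in 4 of the 9 libraries. Nkain4 was not high, with 12 reads in all libraries together.

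**Figure D1:**
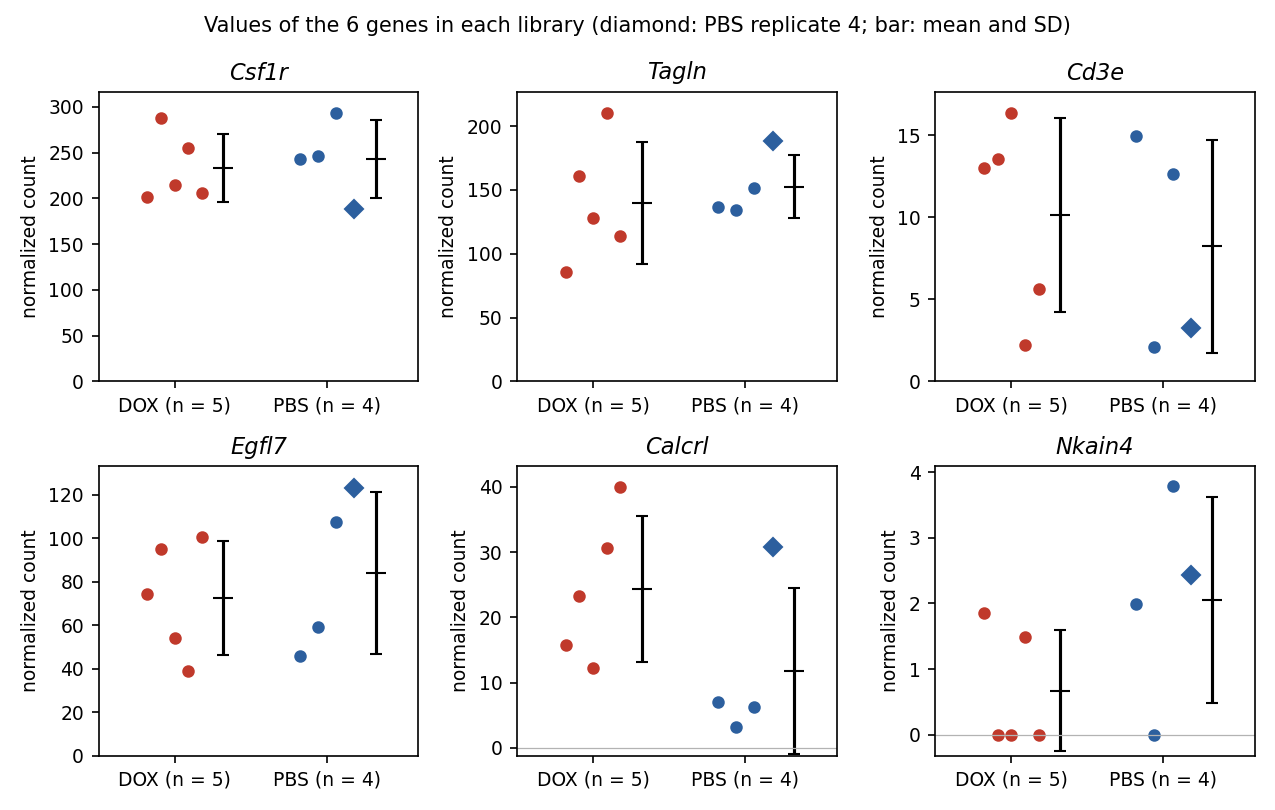
Normalized counts of the 6 genes in each library, with DOX on the left (red, n = 5) and PBS on the right (blue, n = 4); the bar is the mean with its SD and the diamond is PBS replicate 4. The DOX and PBS libraries overlap for every gene, and for Calcrl the overlap comes from PBS replicate 4 at 30.8.

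Of the 2604 genes that were high enough to test between DOX and PBS, 0 passed an adjusted p of 0.05 in limma, a background of 0%, and 162 (6.22%) had an unadjusted p under 0.05. All 5 members that could be tested missed the threshold, and none of the 5 had an unadjusted p under 0.05. Nkain4 was too low to be tested. For none of the 6 genes did all DOX libraries lie on one side of all PBS libraries, which 2.65% of the tested genes did.

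Csf1r (ENSMUSG00000024621.16, chromosome 18 of mm10, 61100598 to 61132149, plus strand) was the highest of the 6 genes. Its normalized counts in the DOX libraries were 201, 288, 215, 255 and 206, against 243, 246, 293 and 189 in the PBS libraries. It was an even signal across the mice, on 149 to 402 reads per library. The groups averaged 233 ± 37.6 in DOX (SD, n = 5) and 243 ± 42.5 in PBS (SD, n = 4), a log2 fold change of -0.05 with a standard error of 0.24 (limma, adjusted p = 0.985). The coefficient of variation over the 9 libraries was 15.8%, where counting error alone would give 6.31%. In each library Csf1r ranked between the 250th and 415th highest gene.

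The other 15 macrophage markers were almost silent by comparison. They summed to 5.81 to 35.3 normalized counts in DOX libraries and to 5.28 to 89.1 in PBS libraries, and 3 of the 15 were at 0 throughout. Csf1r made up 67.9% to 98.0% of the sum of its list. Next in the list came Lyz2, the lysozyme of macrophages and neutrophils, at a mean of 6.67, then the integrin gene Itgam at 3.87 and the lysosomal glycoprotein gene Cd68 at 3.58.

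In PBS replicate 4 the rest of the macrophage list was high while Csf1r was not. There the other macrophage markers reached 89.1, which was 10.8 times the median of the other 8 libraries, with Lyz2 at 40.5 and Itgam at 25.9. Csf1r was at its lowest in that same library, at 189, while all 8 other libraries lay above it. Other cell types were also high in PBS replicate 4: granulocyte markers summed to 1190 there against 34.8 to 93.4 elsewhere, pan-immune markers to 331 against 3.71 to 46.0, and epithelial markers to 481 against 15.8 to 179. Red blood cell markers summed to 81.8 in it against 0 to 7.17, while the fibroblast markers were low, at 1411 against 1967 to 3184. In such bulk libraries, fewer cells of a type and less RNA per cell cannot be told apart.

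The partners of the receptor were low as well. The ligand genes Csf1 and Il34 averaged 5.10 and 0 in DOX libraries, against 6.04 and 6.88 in PBS libraries, and Il34 was above 0 in PBS replicates 1 and 2 alone. Cbl, which tags the active receptor for removal, averaged 5.48 in DOX and 4.66 in PBS, and the adaptor gene Tyrobp averaged 1.07 in DOX and 9.36 in PBS, with 36.5 in PBS replicate 4. None of the 8 genes of this pathway list was high enough to test.

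The annotation placed another gene on the opposite strand of the Csf1r 3′ end. Hmgxb3, which encodes an HMG-box protein, lies on chromosome 18 from 61131277 to 61177050 on the minus strand, tail to tail with Csf1r. Its exons covered 873 bases at the very end of Csf1r, all of them noncoding in Csf1r. The last 500 bases of a transcript were taken here as the reach of a 3′ tag. For Hmgxb3, with transcripts that end at different points, these windows together covered 516 bases of Csf1r exons. The counts listed for Hmgxb3 itself were small, at 16.7, 0, 0, 0 and 12.8 in the DOX libraries, against 0, 1.06, 0 and 10.5 in the PBS libraries. Hmgxb3 was above 0 in 4 of the 9 libraries, and Csf1r exceeded it in all 9.

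Tagln (ENSMUSG00000032085.5, chromosome 9, 45929619 to 45936058, minus strand) stood in a like position in the smooth muscle list. It was at 85.4, 161, 128, 210 and 114 normalized counts in DOX libraries, against 137, 134, 151 and 188 in PBS libraries. The DOX libraries spread wider than the PBS libraries and covered their whole range. The means were 139 ± 47.8 in DOX (SD, n = 5) and 153 ± 24.8 in PBS (SD, n = 4), a log2 fold change of -0.18 with a standard error of 0.29 (limma, adjusted p = 0.950).

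Tagln made up 76.0% to 97.9% of the sum of the smooth muscle and pericyte list. The other 11 genes together came to 13.4 to 27.2 normalized counts in DOX and to 3.00 to 24.3 in PBS. The highest of them were the myosin light chain gene Myl9 at a mean of 5.15, the pericyte receptor gene Pdgfrb at 4.34 and the leiomodin gene Lmod1 at 3.52, and 3 of the 11 were at 0 in every library. Other actin-binding genes of wider use were measurable. Tagln2, the transgelin of nonmuscle cells, averaged 20.98 ± 10.4 in DOX and 43.0 ± 12.1 in PBS (log2 fold change -1.09, limma, adjusted p = 0.761), and the calponin Cnn2 averaged 18.8 ± 7.32 in DOX and 22.0 ± 23.9 in PBS (SD, n = 5 and 4). The filamin gene Flna averaged 13.2 in DOX and 15.6 in PBS, and the tropomyosin gene Tpm1 averaged 8.33 in DOX and 6.13 in PBS. Of the 15 genes of that cytoskeleton list 3 were tested and 0 passed, with 1 of the 3 higher in DOX and a median log2 fold change of -0.21, beside -0.01 over all tested genes.

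Tagln was the member with the most antisense annotation. Gm48529, an antisense noncoding gene on the plus strand (45930112 to 45933738), covered 1241 exonic bases of Tagln, of which 603 were coding in Tagln. The end of the coding sequence shows what the 2 genes share. The stretch below is given for Tagln, and as it reads in Gm48529 on the other strand, from chromosome 9, 45930371 to 45930430 (GENCODE M21 transcripts), with the Tagln stop codon and its complement in capitals:

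Tagln: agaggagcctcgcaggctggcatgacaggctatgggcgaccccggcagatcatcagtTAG
Gm48529: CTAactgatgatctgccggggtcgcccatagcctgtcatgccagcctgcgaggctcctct

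Over these 60 bases each transcript is the exact reverse complement of the other, so a tag from this stretch is told to be Tagln or Gm48529 by its strand alone. The stretch lies more than 500 bases from the outermost annotated 3′ ends of Tagln (45929619) and Gm48529 (45933738). How many tags came from it is not known. Gm48529 was itself well counted. Its normalized counts were 145, 120, 226, 242 and 240 in DOX libraries, against 204, 147, 381 and 472 in PBS libraries, which is 0.747 to 2.52 times those of Tagln in the same library. Its means were 195 ± 57.8 in DOX (SD, n = 5) and 301 ± 152 in PBS (SD, n = 4), a log2 fold change of -0.53 with a standard error of 0.35 (limma, adjusted p = 0.818).

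Gm48529 was in this respect unlike the other opposite-strand neighbours, which held few reads. A second gene, Pcsk7, which encodes a proprotein convertase, ends on the 3′ end of Tagln from the other side and covers its last 108 bases. Pcsk7 was at 23.2, 0, 17.4, 4.48 and 10.2 normalized counts in DOX, against 2.00, 6.33, 5.05 and 19.4 in PBS. The groups overlapped, with a log2 fold change of 0.10 and a standard error of 1.03 (limma, adjusted p = 0.988).

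**Figure D2:**
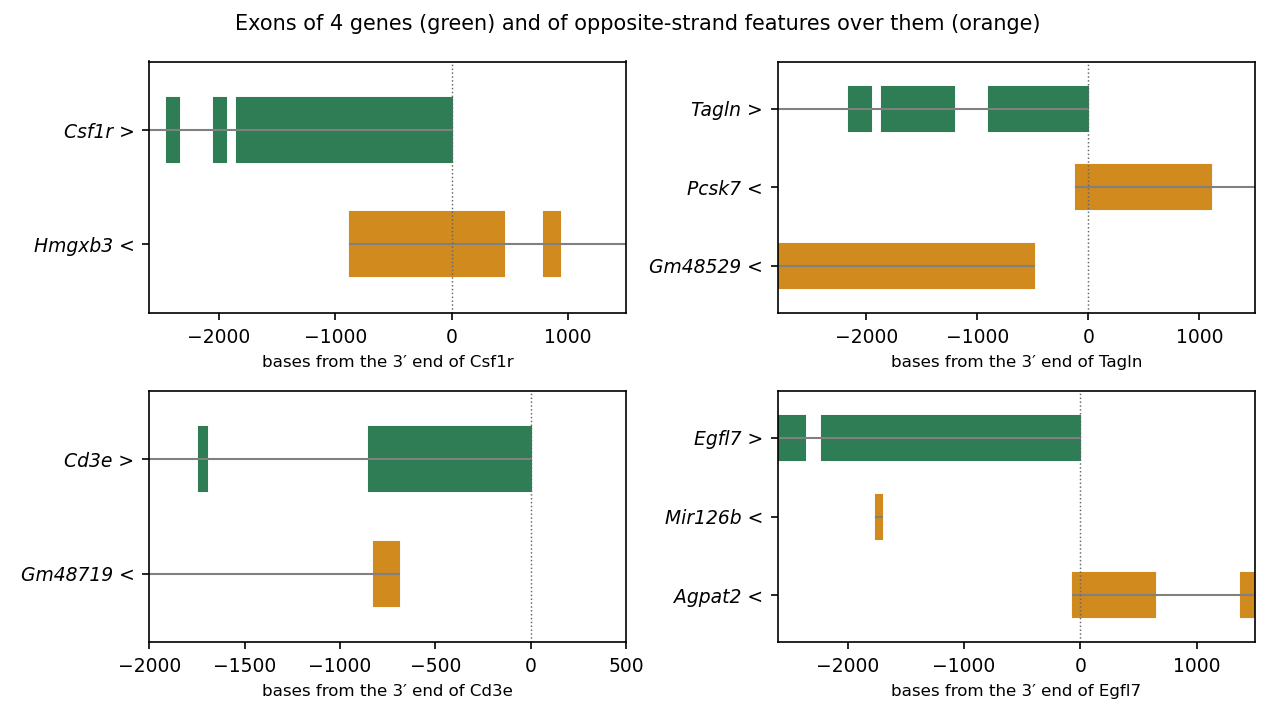
Exons of Csf1r, Tagln, Cd3e and Egfl7 (green, drawn left to right towards their 3′ end at 0) and of annotated genes on the opposite strand over them (orange), against the distance in bases from the 3′ end; thin lines are introns and arrows give the direction of transcription. Hmgxb3, Pcsk7 and Agpat2 run into the 3′ ends of Csf1r, Tagln and Egfl7 over 873, 108 and 64 bases, while Gm48529, Gm48719 and Mir126b lie further in.

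Egfl7 (ENSMUSG00000026921.18, chromosome 2, 26580014 to 26593120, plus strand) was the leading endothelial marker. DOX libraries had 74.2, 94.8, 54.1, 38.8 and 100 normalized counts, against 46.0, 59.1, 107 and 123 in PBS libraries. Both groups ran from low to high values and overlapped widely. The means were 72.5 ± 26.2 in DOX (SD, n = 5) and 83.9 ± 37.2 in PBS (SD, n = 4), a log2 fold change of -0.18 with a standard error of 0.39 (limma, adjusted p = 0.977). Without PBS replicate 4, the highest library, the log2 fold change was 0.04, with a standard error of 0.40 (limma, adjusted p = 0.987).

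Egfl7 made up 31.1% to 77.3% of the endothelial list sum. The 13 genes of the list other than Egfl7 and Calcrl summed to 13.9 to 55.3 normalized counts in DOX and to 20.1 to 109 in PBS. PBS replicate 4 held the 109, which was 5.18 times the median of the other libraries, and Egfl7 was there 1.85 times its own median. Plvap, which forms the diaphragms of capillary pores, averaged 6.93 in DOX and 14.8 in PBS, with 39.7 in PBS replicate 4. Among genes near EGFL7 in function or family, its relative Egfl8 averaged 151 ± 42.2 in DOX and 138 ± 92.9 in PBS (SD, n = 5 and 4; log2 fold change 0.29, limma, adjusted p = 0.928). The Notch ligand gene Jag1 averaged 38.4 in DOX and 48.4 in PBS, the receptor gene Notch1 averaged 4.49 in DOX and 7.97 in PBS, and Jag2 averaged 1.12 in DOX and 10.5 in PBS, with 37.3 in PBS replicate 4. Of the 8 genes of that list 2 were tested and 0 passed.

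An intron of Egfl7 is the known source of miR-126, an endothelial microRNA, and in the annotation microRNA genes on both strands fall on exonic bases of some Egfl7 transcripts. Mir126a lies on the same strand as Egfl7 over 73 bases, and Mir126b lies over 58 bases on the opposite strand. Their mature products show how close the strands are, given here 5′ to 3′ from RefSeq (GRCm38.p6) with the seed, bases 2 to 8, in capitals:

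mmu-miR-126a-3p: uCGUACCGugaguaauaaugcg
mmu-miR-126b-5p: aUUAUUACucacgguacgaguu
mmu-miR-126b-3p: cGCGUACCaaaaguaauaaugug

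The 3 seeds differ. mmu-miR-126a-3p spans 26591402 to 26591423 on the plus strand and mmu-miR-126b-5p spans 26591399 to 26591420 on the minus strand. Mir126a was at 0 in all 9 libraries, and Mir126b held 8 reads, at 3.07 normalized counts in DOX replicate 5 and 1.62 in PBS replicate 4. A method that captures polyadenylated RNA does not measure mature microRNAs.

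At the 3′ end of Egfl7, Agpat2 comes in from the opposite strand. Agpat2 encodes an acyltransferase of lipid synthesis, and it covers the last 64 bases of Egfl7. It was listed at 0, 1.94, 7.15, 0 and 18.4 normalized counts in DOX, against 0.999, 0, 0 and 6.48 in PBS, 53 reads in all. Gm20532, a coding model on the same strand as Egfl7 that shares 264 exonic bases with it, was at 0 throughout.

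Calcrl (ENSMUSG00000059588.13, chromosome 2, 84330626 to 84425411, minus strand) was the member with the largest fold change. DOX libraries had 15.8, 23.2, 12.3, 30.6 and 40.0 normalized counts, against 6.99, 3.17, 6.31 and 30.8 in PBS libraries. All 5 DOX libraries lay above PBS replicates 1 to 3, and PBS replicate 4 lay among the higher DOX libraries. The means were 24.4 ± 11.2 in DOX (SD, n = 5) and 11.8 ± 12.8 in PBS (SD, n = 4). The log2 fold change was 1.32 with a standard error of 0.65 and did not pass the test (limma, unadjusted p = 0.0596, adjusted p = 0.761). The filter for testing asks for a value of 10 or more in 4 or more libraries. Calcrl met it through its DOX libraries, since of the PBS libraries only replicate 4 was at 10 or more. Its p and its direction are thus not independent of that filter, also where a PBS library is left out.

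The size of this difference depended on single PBS libraries. Without PBS replicate 2, the lowest, the log2 fold change of Calcrl was 0.93 with a standard error of 0.66 (limma, unadjusted p = 0.179, adjusted p = 0.894). Without PBS replicate 4, in which the endothelial and several other marker lists were high, it was 1.90 with a standard error of 0.65 (limma, unadjusted p = 0.00976, adjusted p = 0.434, 2447 genes tested). The 5 DOX libraries then lay above all remaining PBS libraries, as was so in either direction for 6.58% of those genes, and 7.93% of them had an unadjusted p under 0.05. In that fit Calcrl met the filter for testing through its DOX libraries alone, with PBS replicates 1 to 3 at 3.17 to 6.99. Its p and the separation of the groups there are thus not independent of the filter. Over all alternatives the adjusted p of Calcrl was between 0.434 and 0.986.

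Calcrl took 3.85% to 24.6% of the endothelial list sum. Its coreceptor gene Ramp2 averaged 5.78 ± 4.19 in DOX and 12.8 ± 11.96 in PBS (SD, n = 5 and 4), with 29.98 in PBS replicate 4. Ramp1 was at 0 in all DOX libraries and at 12.2 in PBS replicate 4 alone, and Ramp3 was at 1.62 in PBS replicate 4 alone. The ligand gene Adm, for adrenomedullin, averaged 14.2 ± 11.5 in DOX and 9.07 ± 8.80 in PBS (SD, n = 5 and 4). None of the 9 genes of the calcitonin receptor list was tested. No annotated gene on the opposite strand had exons over those of Calcrl.

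**Figure D3:**
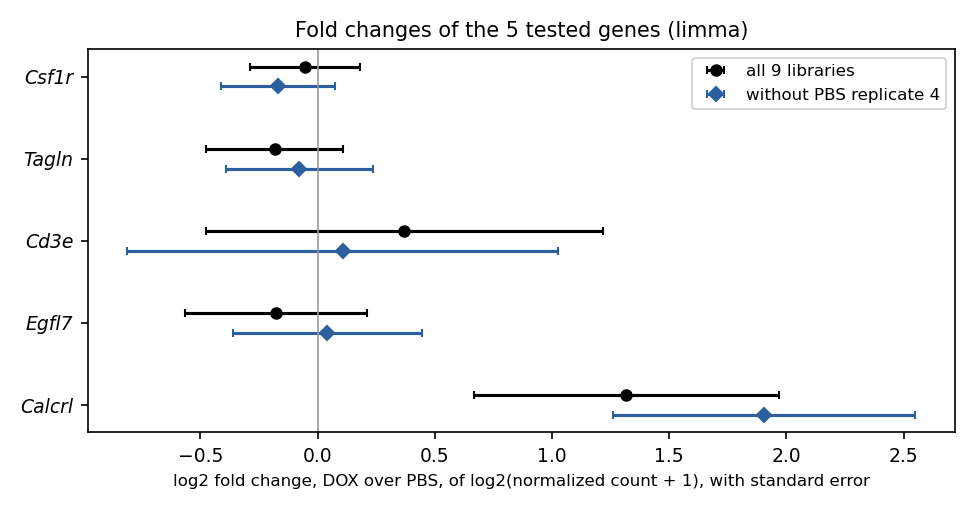
Log2 fold changes of the 5 tested genes, DOX over PBS, on log2(normalized count + 1) with their standard errors from limma; black circles are all 9 libraries and blue diamonds leave out PBS replicate 4. Calcrl is at 1.90 without that library and at 1.32 with it, Egfl7 changes sign, and Csf1r and Tagln are below 0 in both fits.

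Cd3e (ENSMUSG00000032093.7, chromosome 9, 44998740 to 45009627, minus strand) was low and uneven. DOX libraries had 13.0, 13.5, 16.3, 2.24 and 5.64 normalized counts, against 15.0, 2.11, 12.6 and 3.24 in PBS libraries. Both groups held high and low libraries, on 2 to 16 reads each. The means were 10.2 ± 5.94 in DOX (SD, n = 5) and 8.24 ± 6.51 in PBS (SD, n = 4), a log2 fold change of 0.37 with a standard error of 0.85 (limma, adjusted p = 0.977).

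Cd3e took 5.77% to 51.7% of the sum of its list. It was the highest T cell marker in DOX replicates 1 and 3 and in PBS replicates 1 and 3, at 38.5% to 51.7% of the sum, and not in the other 5 libraries. The other 15 T cell markers summed to 16.7 to 49.2 normalized counts in DOX and to 13.7 to 25.9 in PBS. Trac averaged 17.9 ± 8.96 in DOX and 3.45 ± 3.25 in PBS (SD, n = 5 and 4), a log2 fold change of 2.35 that did not pass (limma, adjusted p = 0.662). It met the filter for testing through DOX libraries alone, with 0 to 7.57 in PBS, so its direction is not independent of that filter. Trac encodes the constant part of the T cell receptor alpha chain. Cd3e was above Trac in 5 libraries, equal to it in 1 and below it in 3. Cd247, the zeta chain of the receptor complex, averaged 6.41 in DOX and 4.47 in PBS, with 25.2 in DOX replicate 2 and 10.5 in PBS replicate 4. The gamma chain gene Cd3g averaged 2.06 in DOX and 0.721 in PBS, with 6.72 in DOX replicate 4. The kinase gene Lck averaged 1.53 in DOX and 0.608 in PBS, with 7.15 in DOX replicate 3. Thy1, which fibroblasts express too, averaged 1.80 in DOX and 5.04 in PBS. Of the 12 other genes of T cell receptor signalling 1 was tested, Trac, and 0 passed.

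The antisense gene Gm48719 covers 135 exonic bases of Cd3e (44999429 to 44999563), 30 of them coding. It held 10 reads in all, 5.23 normalized counts in DOX replicate 4, 2.11 in PBS replicate 2 and 0.810 in PBS replicate 4. Cd3e was at its lowest values in these same 3 libraries, at 2.24, 2.11 and 3.24.

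Nkain4 (ENSMUSG00000027574.15, chromosome 2, 180934772 to 180954699, minus strand) was at or near 0. It had 1.86, 0, 0, 1.49 and 0 normalized counts in DOX libraries, against 2.00, 0, 3.79 and 2.43 in PBS libraries, which are 0 to 3 reads each. At 3 reads a library, the floor used here, neither group was above it and no fold is given. The other 9 mesothelial markers were as low, with sums of 0 to 5.98 in DOX and 0 to 6.33 in PBS and with 5 of the 9 at 0 throughout. Wt1, a transcription factor of the mesothelium, averaged 0.390 in DOX and 1.64 in PBS, with 5.28 in PBS replicate 2. Krt19 averaged 1.20 in DOX, from DOX replicate 4 alone at 5.98, and 0 in PBS. Msln, the gene of mesothelin, averaged 0.186 in DOX and 0.579 in PBS. Genes of the sodium pump were measurable: Atp1b1, a beta subunit, averaged 40.3 ± 15.6 in DOX and 38.2 ± 28.3 in PBS (SD, n = 5 and 4; log2 fold change 0.35, limma, adjusted p = 0.950), and Atp1b3, another beta subunit, averaged 6.51 in DOX and 7.59 in PBS. No transcript end within 500 bases lay over Nkain4 from the opposite strand, and Gm14341 covered 55 bases near its 5′ end, with 3 reads.

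Whether each gene followed the rest of its lineage was asked over the 9 libraries, with log2(normalized count + 1) of the gene against that of the sum of the other markers. The same was asked for the opposite-strand partner, the gene of which the last 500 bases of transcripts cover most bases of the member. For Tagln this was Gm48529. With a window of 250 bases it would be Pcsk7, which was not set against Tagln. Of these 14 relations 0 passed after adjustment over all 14 (exact two-sided permutation test). For none of the 6 genes did the relation with its own list pass. Pearson's r with the rest of the list was -0.63 for Csf1r (Spearman's rho -0.48, n = 9, exact permutation p = 0.0669 and 0.194, adjusted p = 0.312 and 0.678). Without DOX replicate 5 and PBS replicate 4, the 2 libraries farthest from the median, r was -0.13, so the relation rests on those libraries.

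For Calcrl the r with the rest of the endothelial list was 0.50 (rho 0.65, n = 9, exact permutation p = 0.167 and 0.0666, adjusted p = 0.489 and 0.311), and 0.13 without DOX replicate 4 and PBS replicate 4. For Egfl7 it was 0.22 (rho 0.35, n = 9, exact permutation p = 0.586 and 0.359, adjusted p = 0.892 and 0.717), and 0.39 without those same libraries. No relation of Egfl7 or Calcrl with its list held beyond the spread of the libraries. For Tagln the r was -0.16 (rho -0.38, n = 9, exact permutation p = 0.640 and 0.313, adjusted p = 0.892 and 0.717), and -0.42 without DOX replicate 5 and PBS replicate 1. For Cd3e it was -0.14 (rho -0.02, n = 9, exact permutation p = 0.701 and 0.982, adjusted p = 0.892 and 0.982), and -0.34 without DOX replicates 2 and 5. For Nkain4, with its few reads, it was 0.01 (rho -0.11, n = 9, exact permutation p = 0.969 and 0.785, adjusted p = 0.969 and 0.982).

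**Figure D4:**
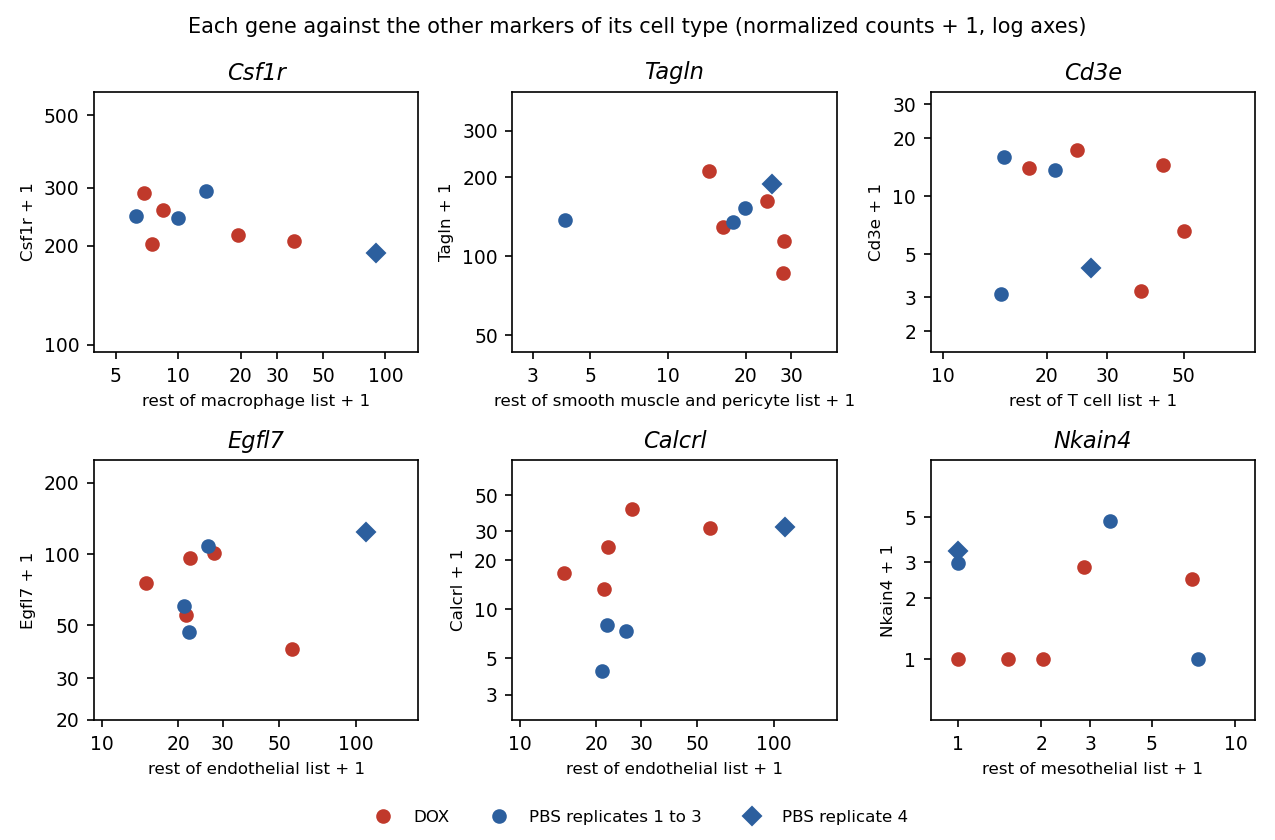
Each gene (vertical axis) against the summed other markers of its cell type (horizontal axis) in the 9 libraries, both as normalized counts + 1 on log axes, with DOX in red and PBS in blue. In PBS replicate 4 (diamond) the rest of the macrophage list reaches 89.1 while Csf1r is at its lowest by normalized count. The rest of the endothelial list reaches 109 there, with Egfl7 at its highest.

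Against their opposite-strand partners, the genes differed in sign. Cd3e and Gm48719 had an r of -0.85 (rho -0.82, n = 9, exact permutation p = 0.00397 and 0.0119, adjusted p = 0.0556 and 0.167), and -0.80 without DOX replicate 4 and PBS replicate 2. Csf1r and Hmgxb3 had an r of -0.79 (rho -0.75, n = 9, exact permutation p = 0.0188 and 0.0311, adjusted p = 0.132 and 0.218), and -0.73 without DOX replicates 1 and 5. Both relations rest on few reads, since Gm48719 was above 0 in 3 and Hmgxb3 in 4 of the 9 libraries. Tagln and Gm48529, both well counted, had an r of 0.45 (rho 0.43, n = 9, exact permutation p = 0.230 and 0.250, adjusted p = 0.537 and 0.700), and 0.51 without DOX replicate 2 and PBS replicate 4. Egfl7 and Agpat2 had an r of 0.39 (rho 0.28, n = 9, exact permutation p = 0.295 and 0.464, adjusted p = 0.591 and 0.722), and 0.53 without DOX replicates 3 and 5. The partners were also set against the rest of the list of their member, and none of these relations passed. The r was 0.49 for Hmgxb3 (rho 0.13, adjusted p = 0.489 and 0.982), 0.04 for Gm48529 (rho -0.02, adjusted p = 0.969 and 0.982), 0.05 for Gm48719 (rho -0.07, adjusted p = 0.969 and 0.982) and 0.25 for Agpat2 (rho 0.30, adjusted p = 0.892 and 0.722), each by the exact permutation test with n = 9.

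A transcript end on the opposite strand was common among genes with high counts in these tables. Of the 6 genes 4 had one within 500 bases, namely Csf1r, Tagln, Cd3e and Egfl7. Over all 21708 protein-coding genes of the tables the share was 17.0%. Among the 2161 coding genes high enough to test it was 54.0%, against 13.0% of the 19547 that were not, and among the 388 coding genes within the 500 highest it was 85.1%. These shares are over genes, which are not independent replicates, and they get no test.

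The lineage markers other than the 6 genes were split at a mean of 5, a different cut from the one for testing. Their shares are therefore not like for like with those above. Some markers reached that mean only through PBS replicate 4, as Coro1a did, at 45.4 there and 0 to 5.11 elsewhere. Without the members, which were selected on their level, 2 of the 20 markers outside the fibroblast list with a mean of 5 or more (10%) had an opposite-strand transcript end, against 9 of the 88 lower ones (10.2%). The 2 were Cd247, with Pou2f1 ending over it, and the actin regulator gene Coro1a. In the 5 lists of the members it was 1 of 7 (14.3%), Cd247, against 3 of 56 (5.36%). Genes with a mean of 5 or more were found both with and without such an end. Calcrl had none, nor did Trac, Plvap or the granulocyte surface marker gene Ly6g, which averaged 64.0 in DOX and 38.6 in PBS. The fibroblast gene Col1a1, at 1400 in DOX and 1795 in PBS, had none either. Egfl8, at a mean of 145, and Atp1b1, at a mean of 39.3, did have one.

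**Figure D5:**
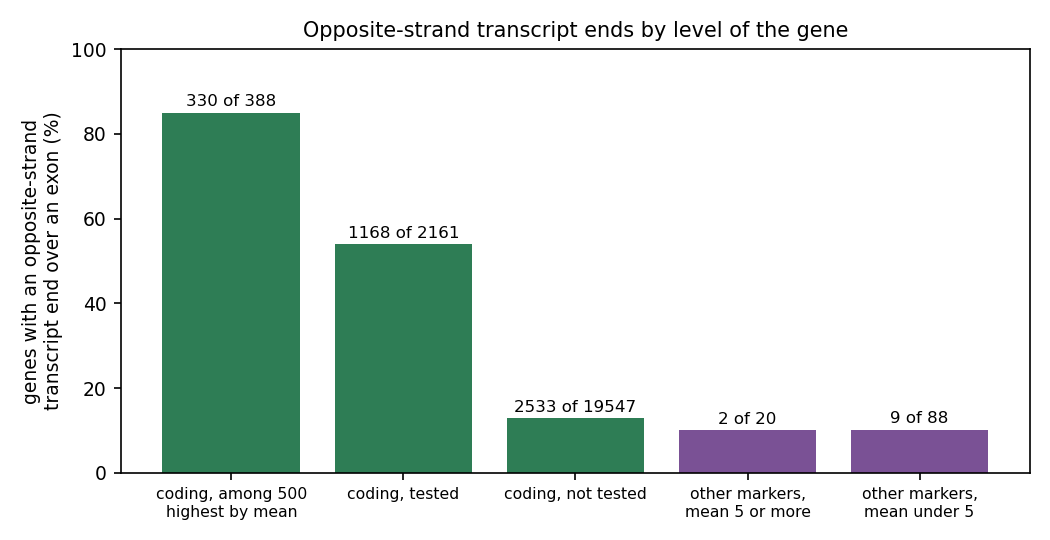
Share of genes (%) with the last 500 bases of an opposite-strand transcript over an exon, for 3 sets of protein-coding genes (green) and for the lineage markers outside the fibroblast list, without the 6 genes (purple). The share is 85.1% among the coding genes within the 500 highest and 13.0% among those not tested. It is 10% and 10.2% among markers above and below a mean of 5, a different cut from the one for testing.

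The reverse position was looked at too, features on the other strand over the last 500 bases of any annotated transcript of a marker, short transcripts that end inside the gene included. Of the 69 markers 7 had such a feature, in 9 pairs. Apart from the members Tagln, Csf1r, Egfl7, Cd3e and Nkain4, which were chosen beforehand, they were Cd247 and Des. The share over all genes is not given here, so the count is a description only. In 2 of the 9 pairs the feature had a mean of 5 or more. Both of these pairs are at Tagln, with Gm48529 at a mean of 242 and Pcsk7 at 9.79. The surface markers of the gate were low in all libraries. Pdgfra, on which the cells were sorted, was at 0.810 to 11.99 normalized counts, Pecam1, which encodes CD31, was at 3.00 to 10.5, Ptprc, which encodes CD45, at 0 to 7.17 and Epcam at 0 to 5.67.

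The genes most like each member over the 9 libraries, by Pearson's r of log2(normalized count + 1) were sought among the tested genes. Apart from the members, Trac was the only tested gene of the 5 lists, so that hardly any marker of the same cell type could be found. For Csf1r they were Ptges3, Serping1 and Il18bp, with r of 0.89, 0.88 and 0.87. For Tagln they were Serinc4, Gm13296 and Fam3c (0.93, 0.88 and 0.85), and for Egfl7 they were Cbarp, Gm4673 and Decr2 (0.89, 0.88 and 0.86). For Calcrl they were Ccdc78, Tmed1 and Tbx3os1 (0.96, 0.93 and 0.92), for Cd3e Chrnb1, Slc7a7 and Atp2a2 (0.91, 0.89 and 0.87), and for Nkain4 Man1b1, Gm10366 and Hspbap1 (0.91, 0.85 and 0.85). These are the highest of many correlations over 9 libraries and are given as a description. Of the 15 genes named for the 5 tested members, 8 had an opposite-strand transcript end, where the share among tested coding genes was 54.0%. The 15 were drawn from all tested genes, coding or not, so this share is not like for like. Between the members themselves r ran from -0.46, for Tagln and Cd3e, to 0.37, for Csf1r and Tagln.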

How the data were processed

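The authors deposited 1 table per library of a normalized signal per gene, made from MARS-seq reads with STAR (genome mm10) and HTSeq with a RefSeq annotation. Tool versions and the strand setting were not given in the sources used here. Every deposited value was a whole multiple of 1 step of its library (tolerance 0.001 of a read), which gave back whole reads, and each step is the inverse of DESeq2's size factor for that library. DOX was compared with PBS by limma 3.58.1 in R 4.3.3, with an intensity-dependent prior variance, on log2 of the value plus 1. The 2604 genes with a value of 10 or more in 4 or more libraries were tested, and p-values were adjusted by Benjamini-Hochberg with a threshold of 0.05. Fold changes of low genes are understated on this scale. The recovered reads were also fitted with limma-voom, DESeq2 1.42.0 and edgeR 4.0.16. The fits were tested on simulated counts.

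Positions came from GENCODE M21, which held 98.3% of the 17428 symbols above 0. Correlations used exact permutation (SciPy 1.17.1, Python 3.11.15). The labels call the libraries biological replicates, and the p-values measure the spread between them. Whether molecular tags were collapsed is not stated, so counting errors cover reads only. Depth was 432322 to 1285816 reads, where 3 reads are a value of 1.54 to 5.81.

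The 6 genes and all marker and pathway lists were chosen with earlier results of these data known. Named genes are the members, genes with exons over theirs, the sorting genes, up to 4 of highest mean in each list and the 3 most like each member. Other genes were named after their values were seen, and 2 genes that the rule takes are not reported here. Alternatives covered normalization, test, filter, pseudocount, replicates, the replicate block, the transcript end window and the scale.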

Additional observations from a re-analysis of the deposited data

Results flagged for a closer look

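Of 30 groups of values checked with Dixon's criterion, 6 held a library far from the rest of its group. Chance flags about 1 in 20 only among independent groups that are not near 0. The groups here share libraries and some hold few reads, so the 6 are not set against that rate. Of the 6, 5 were in PBS replicate 4. Calcrl was at 30.8 there against 3.17 to 6.99 in the other PBS libraries, and the rest of the endothelial list was at 109 against 20.1 to 25.2. The rest of the macrophage list was at 89.1 against 5.28 to 12.6. The opposite-strand neighbour Hmgxb3 was at 10.5 against 0 to 1.06, and Agpat2 was at 6.48 against 0 to 0.999. The remaining one was Gm48719, at 5.23 in DOX replicate 4 and at 0 in the other DOX libraries.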

How the results depend on the processing

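The count of genes passing the test was 0 under every alternative but one. With no filter on low values 3 of 17428 genes passed, Gm17300 and CT010467.1 higher and Gm20721 lower in DOX, and no member was among them (named after their values were seen). An unadjusted p under 0.05 was given to 463 of 17428 genes by DESeq2 (2.66%), to 149 of 2618 by edgeR (5.69%) and to 160 of 2618 by limma-voom (6.11%). No member passed under any of the 18 alternatives, and Calcrl and Tagln kept their direction in all of them, at 0.93 to 1.90 and -0.34 to -0.02. Leaving out each replicate in turn gave log2 fold changes of -0.17 to 0.04 for Csf1r, -0.04 to 0.76 for Cd3e and -0.43 to 0.04 for Egfl7. The sign turned for Csf1r without PBS replicate 3 (0.042), for Cd3e without PBS replicate 2 (-0.041) and without PBS replicate 4 and DOX replicate 2 together (-0.047), and for Egfl7 without DOX replicate 4 (0.022) and without PBS replicate 4 (0.042). The cause was not tested. The replicate block, with replicates 1 to 4 of both groups paired by number, called 0 of 2450 genes. Deviations of same-numbered libraries correlated at 0.02 to 0.07. Those of differently numbered libraries were not computed, so whether the numbers pair the libraries was not tested. With windows of 250 and 1000 bases, 4 and 5 of the 6 genes had an opposite-strand end. The 14 relations gave 0 passing on the linear scale and without each replicate. Gm48719 was above 0 in 3 libraries, which limits how small its p with Cd3e can be once 1 of them is left out. That p was 0.0179 without DOX replicate 4 (exact permutation test, adjusted p = 0.25), so the check says little on this pair. Cd3e, Calcrl and Nkain4 rest on 82, 213 and 12 reads, which limits any statement on them.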

Other observations

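Cd3e and Tagln lie on the same chromosome and strand, 919991 bases apart, and Egfl7, Calcrl and Nkain4 share chromosome 2. Serping1, the inhibitor of the C1 proteases of complement, was among the genes most like Csf1r, and it was at 54.3 to 134 normalized counts with no opposite-strand end.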
